A study of Danio rerio with 8 samples.

Results

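The deposited count table of this zebrafish (Danio rerio) embryo series named each library by a treatment letter and a suffix, and the 3 libraries with the suffix 1m were set against the 5 libraries with a suffix 2, within treatments. The 1m set held 1 library each of high glucose, high salt and control embryos. The suffix 2 set held 2 libraries of high glucose (2f and 2m), 1 of high salt (2m) and 2 of control (2f and 2m), so that the comparison used all 8 libraries of the series. RNA came from whole embryos cultured for 72 h, and the sources used here give neither the strain nor the age at the start nor any dose of glucose or salt. The labels do not say what the suffixes mean, so whatever they stand for cannot be told apart from the differences described here. Nothing in the labels places the samples in separate clutches or dishes, so p-values measure the spread between these samples alone, and that spread may be technical.

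Zebrafish embryos lengthen from the tailbud, where progenitors under T-box, Cdx and Wnt control feed the presomitic mesoderm, and a segmentation clock divides that mesoderm into somites. Somite cells then switch on myogenic transcription factors, fuse into fibers and fill with contractile proteins. Lens fiber cells accumulate crystallins and neurons acquire neurofilaments, transmitter enzymes and synaptic proteins as the embryo matures.

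The data are raw read counts for 31953 genes, with library totals from 14.65 M to 17.32 M counts. Control 1m and salt 2m stood apart from the other libraries on the main principal components of log2 CPM, the count scaled to a fixed total for each library, which carried 39.3% and 33.1% of the variance. On the leading component salt 2m lay at 109 and the others between -57.1 (control 1m) and 29.7. On the next control 1m lay at 77.4, salt 1m at 50.4 and the others between -58.6 (glucose 2m) and 11.7. Genes of the hatching gland (he1a, 886 to 1197 CPM) and of fast muscle (mylpfa, 1445 to 4559 CPM) were well represented in all libraries. The liver fatty acid-binding gene fabp10a, the ultraviolet opsin gene opn1sw1, the growth hormone gene gh1, the hemoglobin gene hbaa1 and the lens gene crygm3 had at most 10 counts in any library and were below the count filter.

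With treatment as a term, 1693 of 20562 tested genes differed at an adjusted p below 0.05 by edgeR's quasi-likelihood test. Of these, 604 genes (2.94% of those tested) were higher and 1089 (5.3%) were lower in 1m. The higher ones had a median log2 fold change of 0.84 and the lower ones a median of -1.22, against 0.01 over all tested genes. Changes of at least 2-fold were seen for 202 of the higher and 729 of the lower genes, and changes of at least 8-fold for 3 and 63. In 584 of the 604 and 1083 of the 1089, the 1m library lay beyond every suffix 2 library of its treatment in all 3 treatments, on the side of the call. That pattern held for 14.3% of all tested genes above and for 16.3% below. The calls were made on the same values, so the pattern among called genes is no separate support for them.

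The count of calls rested on particular libraries. Without control 1m it fell to 646 (176 higher, 470 lower), without control 2m to 659 (171 and 488) and without glucose 2m to 561 (152 and 409). Without both libraries that stood apart it was 154 (70 and 84), a fit in which 1 glucose 1m library against 2 of suffix 2 carries the whole difference. Without the treatment term, 24 genes were called. In these whole-embryo samples fewer cells of a type and less RNA per cell cannot be told apart.

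Among genes of the tailbud and the presomitic mesoderm most calls were higher in 1m. Of 35 tested members of that list, 13 were higher (37.1%) and 1 lower (2.86%), and the median log2 fold change was 1.01. Over all tested genes 2.94% were higher and 5.3% lower. T-box, protocadherin and clock genes led the list, while several signaling genes of the same tissue did not pass. The plot of levels by library shows 3 of these genes beside muscle, lens and neuronal ones.

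tbx6, a T-box factor gene of presomitic mesoderm (chromosome 12), had 20.8, 5.88 and 17.2 CPM in control, glucose and salt 1m, against 0.671 CPM in control 2f and 0.989 CPM in control 2m, 0.376 and 0.501 CPM in glucose 2f and 2m and 1.21 CPM in salt 2m. The lowest 1m library lay above the highest suffix 2 library, and control 1m and salt 1m were the highest of all. The log2 fold change was 4.13 ± 0.27 (standard error derived from the test's F statistic, adjusted p = 0.000184), the lowest p in the comparison. It was 4.63 within control, 3.72 within glucose and 3.82 within salt.

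pcdh8, a protocadherin gene of paraxial mesoderm, had 14.95, 4.22 and 10.7 CPM in control, glucose and salt 1m, against 0.427 CPM in control 2f and 0.349 CPM in control 2m, 0.627 and 0.313 CPM in glucose 2f and 2m and 3.02 CPM in salt 2m. All 1m libraries were again higher than all suffix 2 libraries, with salt 2m nearest to them (log2 fold change 3.50 ± 0.50, adjusted p = 0.00433). The clock gene her1 had 3.06, 1.77 and 2.04 CPM in control, glucose and salt 1m, against 0.188 to 0.377 CPM over the suffix 2 libraries (2.97 ± 0.45, adjusted p = 0.00493). The mesoderm factor gene msgn1 had 6.18, 2.28 and 1.90 CPM against 0.376 to 0.915 CPM (2.45 ± 0.42, adjusted p = 0.00841), and without control 1m its adjusted p was 0.0978.

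cdx4, which helps to set posterior identity, had 22.6, 7.08 and 12.3 CPM in control, glucose and salt 1m, against 4.09 CPM in control 2f and 3.20 CPM in control 2m, 3.07 and 1.94 CPM in glucose 2f and 2m and 2.34 CPM in salt 2m. No library of 1m reached down to the suffix 2 range (2.19 ± 0.27, adjusted p = 0.00254). The Wnt target gene sp5l was higher by 2.08 ± 0.27, and the notochord and tailbud homeobox gene noto by 1.91 ± 0.45. The noto call (adjusted p = 0.0296) was lost in 5 of the 8 fits that left out 1 library (1.32, adjusted p = 0.262 without control 1m). Its value within salt was 0.41, and glucose 1m (1.37 CPM) lay below control 2m (1.63 CPM) and salt 2m (1.43 CPM). ta, the zebrafish Brachyury gene, differed less, with 27.6, 24.5 and 26.2 CPM in control, glucose and salt 1m against 13.0 to 17.5 CPM over suffix 2 (0.79 ± 0.15, adjusted p = 0.0136). Its within-treatment values were 0.80, 0.82 and 0.74, the most even of the genes named here for this list.

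Signaling genes of the tailbud were closer to 0: the values were 0.24 for wnt3a, 0.73 for fgf8a, 0.11 for cyp26a1, which clears retinoic acid, and -0.20 and -0.28 for the Notch ligand genes dlc and dld, none past the threshold. The repressor gene hes6, with 14.9, 50.1 and 41.2 CPM in control, glucose and salt 1m against 39.1 to 81.9 CPM over suffix 2, was the lower member (-0.85 ± 0.22, adjusted p = 0.0393). Its call was lost in 6 of the 8 fits that left out 1 library, and without control 1m it had -0.49 (adjusted p = 0.142). Of 23 tested posterior hox genes 22 had values above 0 (median 0.45), and hoxc13a, which patterns the tail end, was the 1 that passed (0.96 ± 0.26, adjusted p = 0.0466), a share of 4.35% against 2.94% over all tested genes. The hoxc13a call was lost in 7 of the 8 fits that left out 1 library (adjusted p up to 0.137), and the list's median was 0.24 without control 1m. With limma voom no posterior hox gene passed (10 at an unadjusted p below 0.05), and with DESeq2 4 did. The median of that list was 0.87 within control, 0.49 within salt and -0.03 within glucose.

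Without control 1m, 7 of 33 tested tailbud members were higher, with a median of 0.54, and without control 2m 8 of 35 were (median 0.74). Without salt 2m, which also removes the salt comparison, 10 were higher and 2 lower (median 0.82), and without both 2 were higher (median 0.36). The summed level of the 39 matched members, 649, 633 and 630.4 CPM in control, glucose and salt 1m against 513 and 531, 647 and 647.4, and 559.9 CPM in the suffix 2 libraries of control, glucose and salt, overlapped between the sets. The within-treatment medians were 1.3 in control, 0.40 in glucose and 0.50 in salt.

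**Figure D1:**
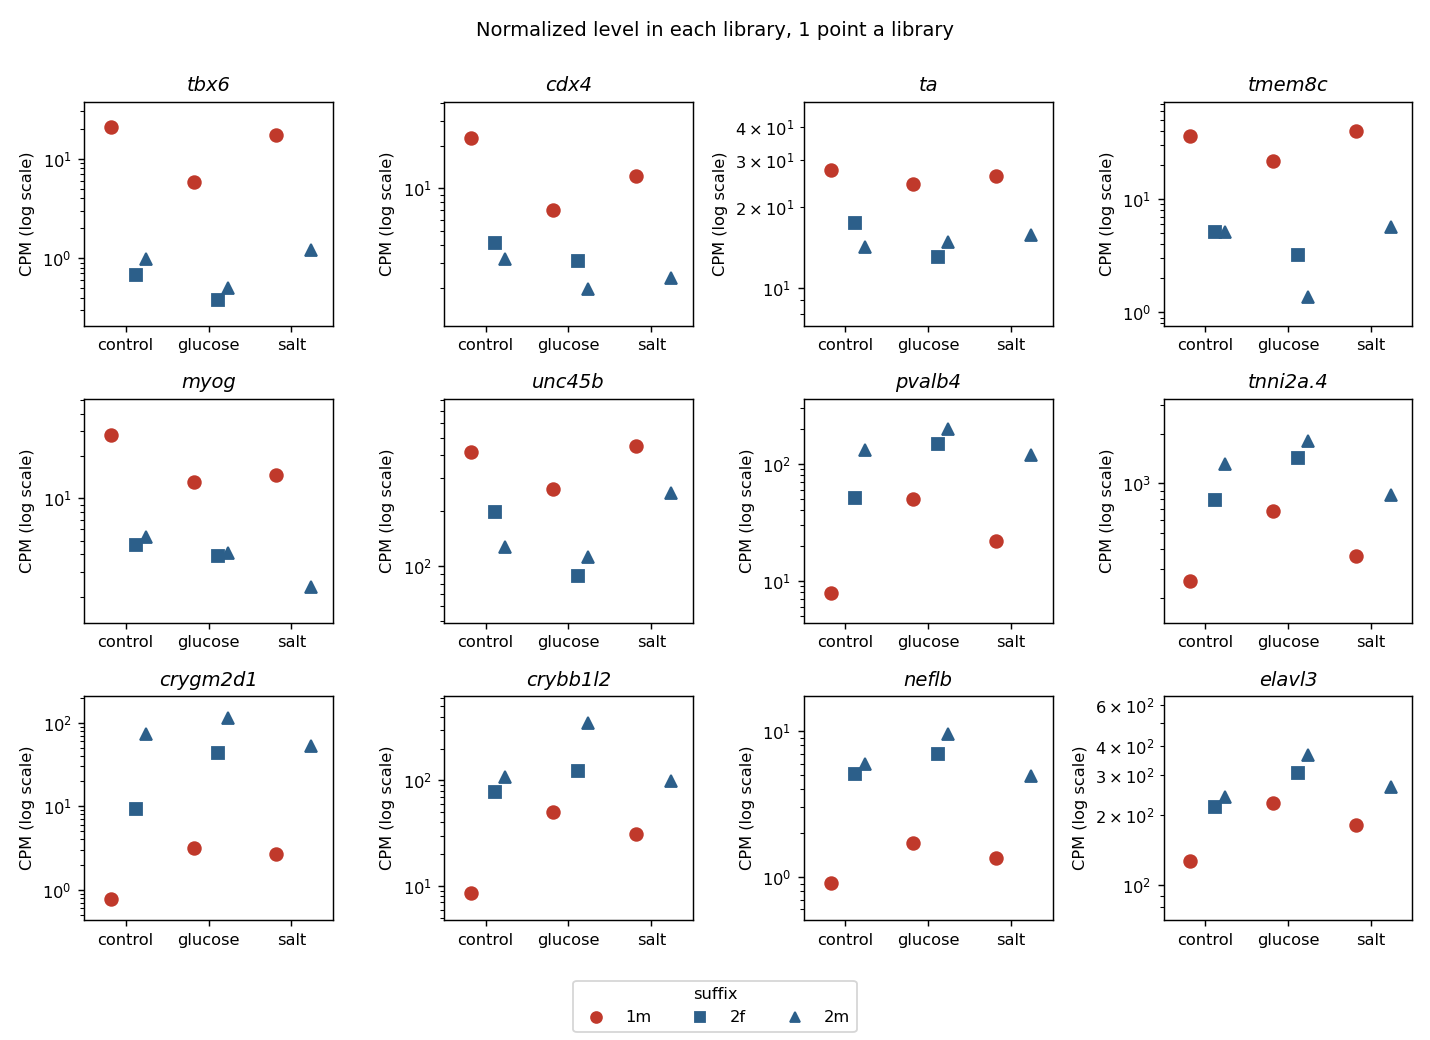
Normalized level (CPM, logarithmic axis) of 12 genes in each of the 8 libraries, by treatment, with 1m libraries as red circles left of the suffix 2 libraries (2f squares, 2m triangles, blue). For tbx6, cdx4, ta, tmem8c, myog and unc45b the 1m point lies above the suffix 2 points of its treatment, and for pvalb4, tnni2a.4, crygm2d1, crybb1l2, neflb and elavl3 it lies below them.

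In the early muscle list, too, the calls were higher in 1m. Of 39 tested members 16 were higher (41%, against 2.94% over all tested genes), and the median was 0.51. None was lower (2 at an unadjusted p below 0.05, 0 with DESeq2 and with limma voom), against 5.3% over all tested genes. The summed level of the list was 6329, 8600 and 7424 CPM in control, glucose and salt 1m. It was 8266 and 6059, 4960 and 9561, and 7179 CPM in the suffix 2 libraries of control, glucose and salt. These sums overlapped between the sets, with control 1m under control 2f and glucose 1m under glucose 2m. tbx6, described above, belongs to this list too. The genes that passed cover myoblast fusion, the myogenic factors and the chaperones of myosin folding.

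tmem8c, the table's name for the fusion gene myomaker (chromosome 5), had 36.4, 21.9 and 40.3 CPM in control, glucose and salt 1m, against 5.19 CPM in control 2f and 5.12 CPM in control 2m, 3.20 and 1.38 CPM in glucose 2f and 2m and 5.66 CPM in salt 2m. All 1m libraries were above all suffix 2 libraries, and salt 1m was the highest. The log2 fold change was 2.97 ± 0.23 (adjusted p = 0.00033), and within treatments it was 2.82 in control, 3.26 in glucose and 2.83 in salt. The gene si:ch1073-268j14.1, which the name table gives as mymx, the partner of myomaker in fusion, had 35.4, 16.8 and 36.3 CPM in control, glucose and salt 1m against 3.70 to 14.3 CPM over suffix 2 (2.10 ± 0.24, adjusted p = 0.00193).

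myog, the myogenin gene, had 28.2, 13.1 and 14.6 CPM in control, glucose and salt 1m, against 4.64 CPM in control 2f and 5.29 CPM in control 2m, 3.89 and 4.07 CPM in glucose 2f and 2m and 2.34 CPM in salt 2m. All 1m libraries were higher than all suffix 2 libraries (2.26 ± 0.22, adjusted p = 0.00131). myod1, which acts before myogenin, had 64.7, 36.6 and 50.7 CPM in control, glucose and salt 1m, against 40.5 and 29.6, 20.5 and 27.6, and 15.5 CPM in the suffix 2 libraries of control, glucose and salt. There the glucose 1m library lay under control 2f, and the difference was smaller (1.01 ± 0.21, adjusted p = 0.0190; 0.0561 without salt 1m).

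The myosin chaperone genes unc45b (1.24 ± 0.18), hsp90aa1.1 (1.59 ± 0.21) and smyd1b (0.90 ± 0.17) were higher together. The smyd1b call was lost without glucose 1m (adjusted p = 0.0628). unc45b had 419, 261 and 451 CPM in control, glucose and salt 1m, against 196 CPM in control 2f and 127 CPM in control 2m, 87.9 and 112 CPM in glucose 2f and 2m and 250 CPM in salt 2m. The ranges of the sets just missed each other, since glucose 1m lay close to salt 2m. The muscle progenitor genes pax3a (-0.01), pax7a (-0.17) and myf5 (-0.03) did not pass. The count of higher members was 14 without control 1m, 15 without salt 2m and 8 without both, and the median was 0.50 within control, 0.70 within glucose and 0.57 within salt.

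In the mature sarcomere list the calls lay on the other side. Of 55 tested members 14 were lower (25.5%, against 5.3% over all tested genes), with a median of -0.56. None was higher (3 at an unadjusted p below 0.05, 0 with limma voom and 1 with DESeq2), against 2.94% over all tested genes. Parvalbumins, calcium buffers of fast fibers, and fast troponins led.

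pvalb4 had 7.87, 49.7 and 21.9 CPM in control, glucose and salt 1m, against 51.4 CPM in control 2f and 131 CPM in control 2m, 149 and 200 CPM in glucose 2f and 2m and 120 CPM in salt 2m. Glucose 1m lay just under control 2f, and control 1m was far below the rest (-2.52 ± 0.37, adjusted p = 0.00468). pvalb1 had 94.99, 516 and 111 CPM in control, glucose and salt 1m, against 719 CPM in control 2f and 1443 CPM in control 2m, 2050 and 2556 CPM in glucose 2f and 2m and 293 CPM in salt 2m. The sets overlapped across treatments for this gene, with salt 2m under glucose 1m, while within each treatment 1m was lower (-2.39 ± 0.38, adjusted p = 0.00611). The troponin I gene tnni2a.4 was lower by a log2 fold change of -1.51 ± 0.24 and the troponin T gene tnnt3b by one of -1.73 ± 0.30.

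Abundant contractile genes of the list did not all pass. mylpfa, the fast myosin light chain gene, had 1853, 2978 and 1640 CPM in control, glucose and salt 1m, against 2898 and 3800, 4268 and 4559, and 1445 CPM in the suffix 2 libraries of control, glucose and salt (-0.46 ± 0.22, adjusted p = 0.209). In salt its 1m library was the higher one. The fast myosin heavy chain gene myhz2 had -1.19 ± 0.36 (adjusted p = 0.0621), with -2.47 within control and -0.33 within salt. Without control 1m, 9 members of the list were lower and the median was -0.23. Without control 2m or glucose 2m 9 were lower as well, without salt 2m 14 were lower and 1 higher, and 3 were lower in the fit that lacked control 1m together with salt 2m. Within salt, with 1 library a side, 4 were higher and 4 lower.

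Lens genes had the lowest median of the 30 lists. Of 54 tested members 41 were lower in 1m (75.9%, against 5.3% over all tested genes). None was higher (1 at an unadjusted p below 0.05, 0 with DESeq2 and with limma voom), against 2.94% over all tested genes. DESeq2 called 43 lower and limma voom 22. The median log2 fold change was -2.67, and it stayed at -2.67 with the 5 genes of 3 or fewer counts in 1m set at a floor of 3 counts. Of the 54 members, 21 are near-identical copies of 1 gamma crystallin block, and 20 of those copies were lower. The count and the median therefore do not stand for 54 separate genes. Of the 15 members that are not crystallins 8 were lower. The summed level of all 72 matched members was 146, 651 and 322 CPM in control, glucose and salt 1m, against 874 CPM in control 2f and 1613 CPM in control 2m, 1501 and 4047 CPM in glucose 2f and 2m and 1179 CPM in salt 2m. Every 1m library had less than every suffix 2 library, and glucose 2m had more than any other.

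The gamma crystallins M2d, fish lens proteins encoded by near-identical copies, form a block on chromosome 9 of the table's GRCz11 coordinates, chr9:22280292-22528713. Of its 21 tested copies 20 were lower. How reads shared by copies were counted is not given, so the value of each copy is uncertain. crygm2d1 had 0.780, 3.20 and 2.65 CPM in control, glucose and salt 1m, against 9.34 CPM in control 2f and 73.1 CPM in control 2m, 43.0 and 115 CPM in glucose 2f and 2m and 52.5 CPM in salt 2m. The highest 1m library lay below the lowest suffix 2 library, control 2f, which was itself well under the other 4 (-4.79 ± 0.69, adjusted p = 0.00434).

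Some copies were almost unread in 1m. crygm2d15 had 1 count over the 1m libraries and 548 over the suffix 2 libraries, which puts suffix 2 331-fold above 1m per scaled count (95% exact interval 59.2 to 13100, counting error only). crygm2d2 had 3 counts against 739 (suffix 2 149-fold above 1m, 50.8 to 724). crygmxl1, a gamma crystallin gene of the same chromosome outside the block, had 1 against 130 (78.6-fold, 13.9 to 3130). Those 130 came mainly from control 2m, glucose 2f and glucose 2m (2.56, 1.13 and 3.95 CPM). Control 2f had 0.122 CPM and salt 2m 0.226 CPM. The crygmxl1 call was lost in 5 of the 8 fits that left out 1 library (adjusted p up to 0.137), and the crygm2d15 call in 1. The M2d copy crygm2d11 had 0 counts against 88 and was at least 17.7-fold lower in 1m, taking a floor of 3 counts over the 1m libraries; it did not pass the gene test. The 18 copies with more than 3 counts in 1m had log2 fold changes from -6.15 to -3.41.

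Beta crystallins differed less: 8 of 12 tested were lower, with values from -2.45 to 0.24 over the 12. crybb1l2 had 8.58, 50.6 and 30.8 CPM in control, glucose and salt 1m, against 78.4 CPM in control 2f and 109 CPM in control 2m, 124 and 346 CPM in glucose 2f and 2m and 99.7 CPM in salt 2m (-2.45 ± 0.39, adjusted p = 0.00606). The sets did not overlap. The alpha crystallin gene cryaa was near the detection limit, with 0, 1.03 and 0.883 CPM in control, glucose and salt 1m against 0.122 to 8.77 CPM over suffix 2, and did not pass (-2.09 ± 1.02, adjusted p = 0.224).

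Beyond the crystallins, the lens water channel gene mipb had 0.195, 12.6 and 6.45 CPM in control, glucose and salt 1m, against 24.4 CPM in control 2f and 20.5 CPM in control 2m, 25.5 and 85.9 CPM in glucose 2f and 2m and 17.3 CPM in salt 2m (-2.65 ± 0.66, adjusted p = 0.0345). The sets did not overlap, and the within-treatment values spread from -6.79 in control to -1.42 in salt. The fiber filament gene bfsp2 was lower by -2.80 ± 0.66. The calls of mipb and bfsp2 were each lost in 4 of the 8 fits that left out 1 library (adjusted p up to 0.109 and 0.117). The lens heat shock factor gene hsf4 had 2 counts in 1m against 61 (suffix 2 18.4-fold above 1m, 4.89 to 156). Those 61 came mainly from glucose 2f, glucose 2m and salt 2m (0.627, 1.88 and 1.43 CPM). Control 1m and control 2m both had 0 CPM and control 2f had 0.122 CPM, so the sets overlapped within control. Dropping single libraries removed the hsf4 call in 6 cases out of 8 (adjusted p up to 0.129). The lens specification genes foxe3 (1.01) and pitx3 (-0.07) did not pass. The count of lower members was 25 without control 1m, 33 without salt 2m, 26 without glucose 2m, 24 without glucose 1m and 5 without control 1m and salt 2m, while the median lay between -3.05 and -2.32 whichever library was left out.

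**Figure D2:**
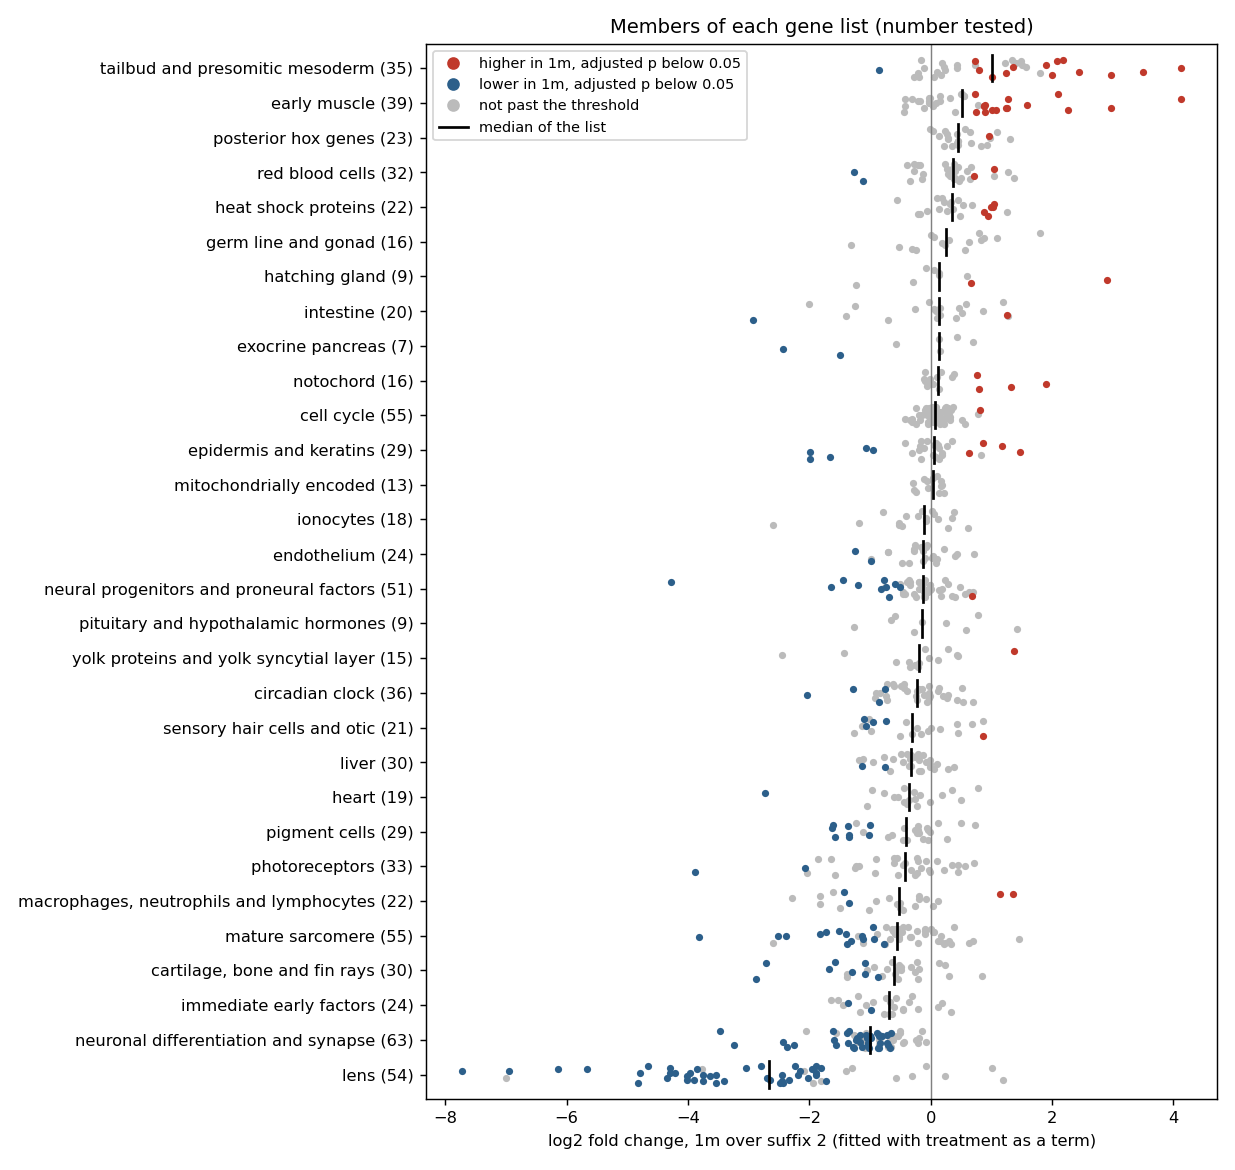
Log2 fold change (1m over suffix 2) of every tested member of 30 gene lists, 1 point a gene, with the list median as a black bar and the number tested in brackets; red and blue points passed the adjusted p threshold of 0.05. The tailbud list has the highest median (1.01), and the neuronal (-1.0) and lens (-2.67) lists have the lowest.

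Neuronal genes were lower in 1m. All 63 tested members of the neuronal differentiation and synapse list had values below 0, and the median was -1.0. Of them 38 passed (60.3%, against 5.3% lower over all tested genes). At an unadjusted p below 0.05, with DESeq2 and with limma voom 0 were higher. The summed level was 704, 1271 and 1126 CPM in control, glucose and salt 1m, against 1470 CPM in control 2f and 1414 CPM in control 2m, 1660 and 1983 CPM in glucose 2f and 2m and 2348 CPM in salt 2m. The 3 lowest sums were those of 1m, and the order within suffix 2 differed from that of the lens list, with salt 2m at the top.

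neflb, a neurofilament light chain gene, had 0.910, 1.71 and 1.36 CPM in control, glucose and salt 1m, against 5.07 CPM in control 2f and 5.99 CPM in control 2m, 6.96 and 9.65 CPM in glucose 2f and 2m and 4.91 CPM in salt 2m. The highest 1m library, glucose 1m, lay below the lowest suffix 2 library (-2.26 ± 0.29, adjusted p = 0.00282). The glutamate receptor subunit gene grin1b had 0.260, 1.31 and 0.272 CPM against 3.49 to 7.24 CPM over suffix 2 (-3.24 ± 0.44, adjusted p = 0.00343). The GABA transporter gene slc6a1a was lower as well (-3.47 ± 0.63).

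The GABA synthesis gene gad2 was highest in salt 2m. It had 6.57, 13.6 and 16.8 CPM in control, glucose and salt 1m, against 16.1 CPM in control 2f and 16.4 CPM in control 2m, 25.7 and 28.2 CPM in glucose 2f and 2m and 52.8 CPM in salt 2m. Salt 1m overlapped the control suffix 2 libraries, while within each treatment 1m was lower (-1.28 ± 0.17, adjusted p = 0.00333). elavl3, an RNA-binding protein gene switched on in new neurons, differed less, with 127, 226 and 182 CPM in control, glucose and salt 1m against 217 and 240, 306 and 364, and 265 CPM in the suffix 2 libraries of control, glucose and salt (-0.66 ± 0.15, adjusted p = 0.0249; 0.0955 without control 1m). The synaptic gene snap25b had -1.05 ± 0.24 (adjusted p = 0.0992 without control 1m).

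Of 51 tested neural progenitor and proneural genes (median -0.13) 10 were lower (19.6%) and 1 higher (1.96%), against 5.3% and 2.94% over all tested genes. Without control 1m, without control 2m or without glucose 2m 3 were lower and none was higher, and without control 1m the median was 0.04. In the full comparison the general progenitor gene sox2 (-0.10 ± 0.16, adjusted p = 0.719) and the proneural gene neurog1 (-0.05 ± 0.18, adjusted p = 0.901) did not pass. The largest difference was in atoh7, the proneural gene of retinal ganglion cells, with 0.325, 0.856 and 0.204 CPM in control, glucose and salt 1m against 1.89 and 10.6, 17.4 and 17.2, and 3.999 CPM in the suffix 2 libraries of control, glucose and salt. The sets did not overlap (-4.28 ± 0.58, adjusted p = 0.00343), and the difference was -4.23, -4.32 and -4.24 within control, glucose and salt. insm1a, a factor gene of differentiating neuronal and endocrine precursors (-1.20 ± 0.15), and the radial glial gene fabp7a (-1.64 ± 0.32) were lower, and zic2b of the dorsal neural tube was higher (0.67 ± 0.18; adjusted p = 0.219 without control 1m).

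Of 33 tested photoreceptor genes 2 were lower (6.06%, against 5.3% over all tested genes), the cone arrestin gene arr3a (-2.08 ± 0.36, adjusted p = 0.00798) and the red opsin gene opn1lw2, which had 3 counts in 1m against 81 (suffix 2 16.3-fold above 1m, 5.39 to 80.8). The opn1lw2 call was lost in 4 of the 8 fits that left out 1 library (adjusted p = 0.0803 without control 1m). A further 21 members were below the count filter. The count of lower neuronal members was 19 without control 1m, 23 without salt 1m or salt 2m, 25 without control 2m, 19 without glucose 2m and 1 without control 1m and salt 2m, where 53 of 63 values were still below 0 and the median was -0.55.

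**Figure D3:**
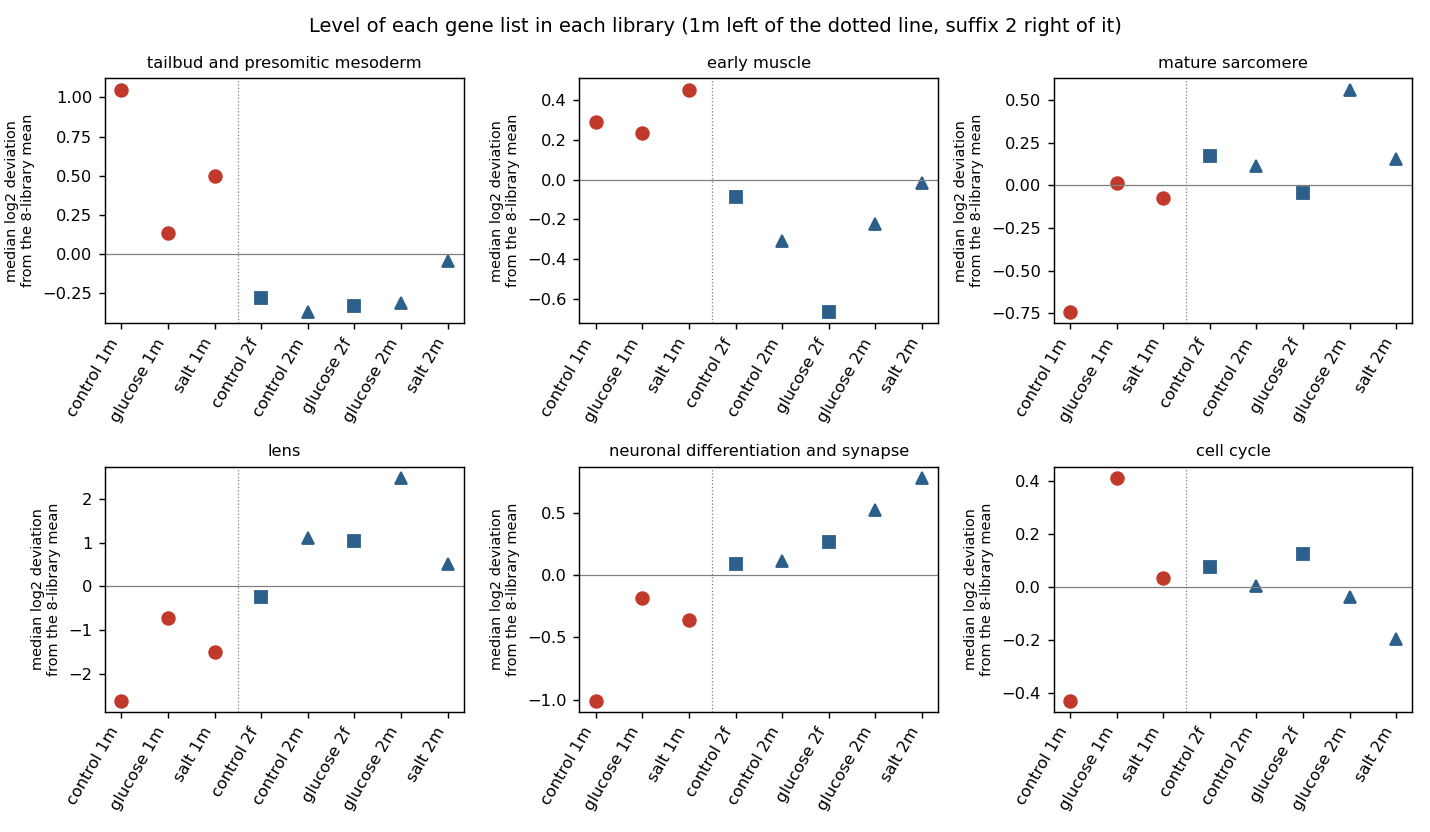
Median log2 deviation from the 8-library mean of each gene, over the tested members of 6 lists, for each library; 1m libraries (red circles) stand left of the dotted line and suffix 2 libraries (2f squares, 2m triangles, blue) right of it. In the lens and neuronal lists every 1m point lies below every suffix 2 point, in the tailbud and early muscle lists above, and in the cell cycle list the sets overlap.

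In the skeletal, fin and pigment lists the calls were all lower in 1m. The cartilage, bone and fin ray list had a median of -0.61 (-0.81 to -0.44 whichever library was left out). Its median was -1.21 within control, -0.38 within glucose and -0.49 within salt. None of its 30 tested genes was higher (1 at an unadjusted p below 0.05 and 1 with DESeq2), against 2.94% over all tested genes. Of the 30, 8 were lower (26.7%, against 5.3% over all tested genes). The actinodin genes and1 (-1.67 ± 0.28), and2 (-1.58 ± 0.26) and and3 (-2.71 ± 0.39), which encode the fibrils of the larval fin fold, were all among them. and1 had 68.1, 107 and 54.3 CPM in control, glucose and salt 1m, against 168 CPM in control 2f and 380 CPM in control 2m, 307 and 424 CPM in glucose 2f and 2m and 116 CPM in salt 2m, with no overlap between the sets. The cartilage matrix gene matn3a was lower by a log2 fold change of -2.88 ± 0.57 (adjusted p = 0.0556 without glucose 1m).

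The type I collagen genes col1a1a (-1.08 ± 0.19) and col1a2 (-1.09 ± 0.21) were lower, and the cartilage collagen gene col2a1a was not called (-0.26 ± 0.22, adjusted p = 0.494). Of 29 tested pigment cell genes 8 were lower (27.6%, against 5.3% over all tested genes), with a median of -0.40. None was higher (2 at an unadjusted p below 0.05, 0 with DESeq2), against 2.94% over all tested genes. Without control 1m 4 pigment cell genes were lower (median -0.19). The 8 included the iridophore genes ltk, a receptor kinase gene, with 1.69, 3.03 and 3.87 CPM in control, glucose and salt 1m against 4.58 to 13.8 CPM over suffix 2 (-1.63 ± 0.25, adjusted p = 0.00515), and pnp4a of purine synthesis (-1.61 ± 0.32). For ltk the lowest suffix 2 library was control 2f and the sets did not overlap. The pnp4a call was lost in 2 of the 8 fits that left out 1 library (adjusted p up to 0.0648), and its value within salt was -0.425.

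Of 29 tested epidermal and keratin genes 4 were higher (13.8%) and 5 lower (17.2%), against 2.94% and 5.3% over all tested genes. Leaving out control 1m, control 2f, control 2m or glucose 2m left 1 higher and 4 lower. krtt1c19e, a basal epidermal keratin gene, had 246, 423 and 148 CPM in control, glucose and salt 1m, against 843 CPM in control 2f and 1657 CPM in control 2m, 965 and 1333 CPM in glucose 2f and 2m and 743 CPM in salt 2m (-1.995 ± 0.28, adjusted p = 0.00388). krt92 had 764, 481 and 782 CPM in control, glucose and salt 1m, against 251 and 198, 144 and 119, and 574 CPM in the suffix 2 libraries of control, glucose and salt (1.47 ± 0.23, adjusted p = 0.00558). Salt 2m exceeded glucose 1m there, and krt17 had its highest level, 856 CPM, in salt 2m. The krt17 call (1.18 ± 0.28, adjusted p = 0.0288) was lost in 6 of the 8 fits that left out 1 library.

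Other lists held few calls. Of 19 tested heart genes 1 was lower (5.26%, against 5.3% over all tested genes), the atrial peptide gene nppa (-2.73 ± 0.29, adjusted p = 0.00163). nppa had 0.975, 1.60 and 2.11 CPM in control, glucose and salt 1m against 6.59 to 10.9 CPM over suffix 2. Of 36 circadian genes 4 were lower (11.1%, against 5.3% over all tested genes). They were led by per1b, a light-responsive clock gene, with 9.10, 14.04 and 3.26 CPM in control, glucose and salt 1m against 24.5 to 49.1 CPM over suffix 2 (-2.03 ± 0.31, adjusted p = 0.00536). Without control 1m or control 2m 2 circadian genes were lower, and without salt 1m, salt 2m or glucose 2m 1 was. The sets did not overlap for nppa or per1b, and the clock gene nr1d1 was not called (-0.38 ± 0.50, adjusted p = 0.675).

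Of 55 cell cycle genes 1 was higher (1.82%, against 2.94% over all tested genes), gmnn (0.82 ± 0.14, adjusted p = 0.00879). It encodes the replication licensing inhibitor geminin. The replication clamp gene pcna was not called (0.15 ± 0.24), and the list's median was -0.43 within control but 0.38 within glucose and 0.24 within salt. Of 22 heat shock genes 5 were higher (22.7%, against 2.94% over all tested genes), among them hspb8 (1.03 ± 0.16) and hspb1 (1.04 ± 0.20). The hspb1 call was lost in 2 of the 8 fits that left out 1 library (adjusted p up to 0.0731). The medians of the heat shock list were 0.96 within control, 0.22 within glucose and -0.19 within salt. Without control 1m or control 2m 2 heat shock genes were higher, and without glucose 2m 1 was. The 13 mitochondrially encoded genes of the list held no call (0 at an unadjusted p below 0.05, 0 with DESeq2). All genes of the mitochondrial chromosome, rRNA and tRNA genes included, made up 4.37%, 3.65% and 3.68% of counts in control, glucose and salt 1m. Those shares were 4.99% and 5.39% in control 2f and 2m, 4.74% and 3.76% in glucose 2f and 2m and 2.23% in salt 2m. The part of mitochondrial genes in the results was not tested.

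Of 16 notochord genes 4 were higher (25%, against 2.94% over all tested genes). Among them was loxl5b, a lysyl oxidase gene (1.33 ± 0.29, with an adjusted p of 0.109 without control 1m). Without glucose 1m 1 notochord gene was higher and the median was -0.03, and without control 1m, control 2m or glucose 2m 2 were. Named genes outside the lists that were higher in 1m included uox, the urate oxidase gene (2.71 ± 0.30), efemp2b (2.41 ± 0.20) and emilin3a (2.32 ± 0.26), both genes of extracellular matrix proteins, and fhl1a, a LIM domain gene (2.32 ± 0.29). efemp2b had 268, 60.3 and 142 CPM in control, glucose and salt 1m, against 39.9 CPM in control 2f and 30.7 CPM in control 2m, 18.6 and 15.6 CPM in glucose 2f and 2m and 26.8 CPM in salt 2m (adjusted p = 0.000538). No 1m library overlapped suffix 2, and glucose 1m was the lowest of the 3.

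Of 21 tested ear genes 4 were lower (19%, against 5.3% over all tested genes) and 1 was higher (4.76%, against 2.94%). None was lower without control 1m, without control 2m or without glucose 2m, and 1 was without control 2f. otofa, the otoferlin gene of hair cell synapses, had 2.73, 3.31 and 5.03 CPM in control, glucose and salt 1m, against 4.82 CPM in control 2f and 7.45 CPM in control 2m, 7.71 and 7.71 CPM in glucose 2f and 2m and 8.60 CPM in salt 2m (-1.07 ± 0.25, adjusted p = 0.0273; 0.0943 without control 1m). Salt 1m lay just above control 2f, while within each treatment 1m was lower. Of 22 tested white blood cell genes 2 were higher and 2 lower (median -0.53). Each count is 9.09% of the list, against 2.94% higher and 5.3% lower over all tested genes. The call of lyz, the lysozyme gene of neutrophils and macrophages (-1.43 ± 0.38, adjusted p = 0.0438), was lost without any 1 of 6 libraries (adjusted p = 0.0971 without control 1m).

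Of 24 tested immediate early genes 2 were lower, nr4a3, an orphan nuclear receptor gene (-1.36 ± 0.27, adjusted p = 0.0155; 0.0736 without salt 2m), and socs3b, a cytokine signaling inhibitor gene (-0.99 ± 0.24). The 2 are 8.33% of the list, against 5.3% over all tested genes, and neither was called without control 1m, salt 1m or salt 2m. The list's median was -0.29 within control, -0.31 within glucose and -1.51 within salt. Its median log2 deviation from the 8-library mean was 1.69 in salt 2m and between -0.498 and 0.0509 in the other 7 libraries.

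Red blood cell genes varied between libraries of both sets. The summed level of the list was 1126, 1918 and 1252 CPM in control, glucose and salt 1m, against 575 CPM in control 2f and 2433 CPM in control 2m, 1430 and 1855 CPM in glucose 2f and 2m and 593 CPM in salt 2m. Of 32 tested members 2 were higher (6.25%) and 2 lower (6.25%), against 2.94% and 5.3% over all tested genes. The embryonic globin gene hbae3 had 0.35 ± 0.74 (adjusted p = 0.804). Control 2f and salt 2m were the lowest libraries of this list.

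The 1m difference had the same sign in all 3 treatments for 44% of the 18419 genes that averaged 1 CPM or more. These differences share no library between treatments, and across those genes, which are not independent replicates, their Pearson r was 0.522 between control and glucose, 0.397 between control and salt and 0.427 between glucose and salt, against 0.21 for the 2f minus 2m difference in control and glucose. Between any 2 treatments the sign of the 1m difference agreed for 61.5% to 63.3% of those genes, against 55.2% for 2f minus 2m. The 44% asks for 3 equal signs at once, a stricter condition, and is not comparable with these pairwise shares. The median size of the 1m difference was 0.436 in control, 0.257 in glucose and 0.449 in salt on the log2 scale. The lens, neuronal, tailbud and early muscle medians had the same sign in all 3 treatments, as the plot of within-treatment medians shows.

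**Figure D4:**
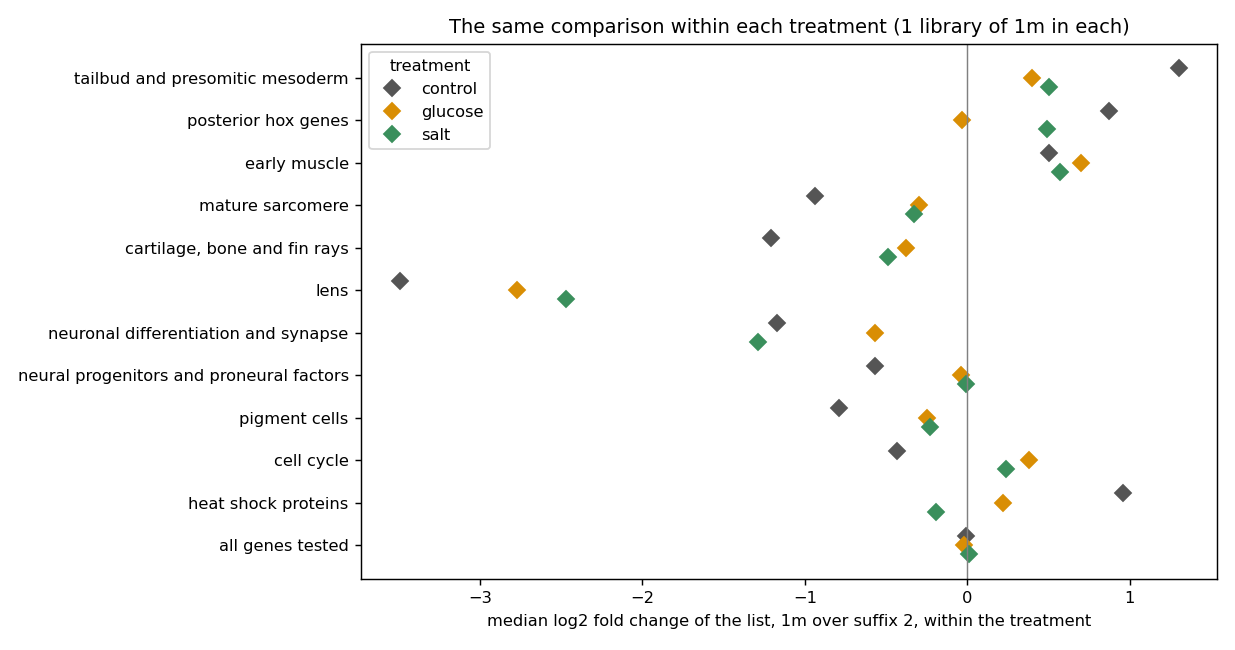
Median log2 fold change (1m over suffix 2) of 11 gene lists and of all tested genes, within control, glucose and salt. The lens list lies at -3.49, -2.77 and -2.47 and the early muscle list at 0.50, 0.70 and 0.57, while the cell cycle list lies at -0.43 in control and at 0.38 and 0.24 in glucose and salt.

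An interaction of treatment and suffix set passed for 353 genes, 1.72% of those tested, and 23 of them were among the 1693 called genes. Among the 353 the largest within-treatment difference lay in control for 189, in salt for 156 and in glucose for 8. With 1 library of 1m in each treatment, a single odd library cannot be told apart from a dependence on treatment. cyp1a, a xenobiotic-metabolizing cytochrome gene, had the lowest interaction p of the genes named here, with 1207, 33.5 and 138 CPM in control, glucose and salt 1m, against 83.8 CPM in control 2f and 98.0 CPM in control 2m, 58.7 and 76.4 CPM in glucose 2f and 2m and 201 CPM in salt 2m. Control 1m alone was far above its treatment (3.73 within control, -1.01 within glucose, -0.54 within salt; adjusted p = 0.000469 for the interaction).

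The ventricular myosin gene vmhc had 11.96, 66.6 and 43.9 CPM in control, glucose and salt 1m, against 52.4 and 46.5, 33.2 and 35.7, and 39.6 CPM in the suffix 2 libraries of control, glucose and salt, with log2 fold changes of -2.05 within control, 0.95 within glucose and 0.15 within salt (adjusted p = 0.00727 for the interaction). he2, a hatching enzyme gene, had 22.0, 7.59 and 21.3 CPM in control, glucose and salt 1m, against 0.915 and 1.16, 0.940 and 0.125, and 25.7 CPM in the suffix 2 libraries of control, glucose and salt. Its difference was 4.39 within control, 3.81 within glucose and -0.28 within salt (adjusted p = 0.0213 for the interaction), and salt 2m stood with the 1m libraries.

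Between 2f and 2m, compared in control and glucose, 1 gene passed, 0.00486% of those tested. It was si:ch211-160d14.9, a long intergenic RNA gene on chromosome 1, chosen for naming after its value was seen. It had 2.75 and 4.51 CPM in control and glucose 2f, against 37.8, 28.1 and 29.2 CPM in control, glucose and salt 2m, and its log2 fold change (2f over 2m) was -3.17 ± 0.31 (adjusted p = 0.0156). The 1m libraries, with 31.9, 24.5 and 24.2 CPM in control, glucose and salt, lay with 2m. In the fit with 3 suffix levels, 1297 genes differed between 1m and 2m and 121 between 1m and 2f, a set of 2 libraries without salt.

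Within the lens list the 2f library lay between 1m and 2m in both control and glucose, with a median log2 fold change of -1.23 for 2f over 2m, none of the genes named here past the threshold of that comparison. Medians of 2f over 2m were next lowest in the exocrine pancreas (-0.60), red blood cell (-0.54) and white blood cell (-0.44) lists, and they were -0.17 (tailbud), -0.04 (early muscle), -0.17 (mature sarcomere) and -0.16 (neuronal) in others.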

How the data were processed

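Whole-embryo RNA was measured in 8 libraries. The deposited values are raw read counts per gene; per the submitters' processing notes, the genome build was GRCz11 and the tools were featureCounts 1.5.0-p3, HISAT2 2.0.5, StringTie 1.3.3b, edgeR 3.22.5 and DESeq2. The labels' protocol describes array hybridization, which the whole-number counts contradict. Strand and shared-read handling are not given in the sources used here, so antisense and tandem genes are uncertain. Coordinates are the table's and were not checked.

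Columns were matched to treatments by name. Counts were scaled by TMM and filtered by filterByExpr, and tested with edgeR's quasi-likelihood test (edgeR 4.0.16, R 4.3.3) with treatment and suffix set as terms (4 residual degrees of freedom), adjusted by Benjamini-Hochberg over 20562 genes. The interaction fit had 2 and the 3-level suffix fit 3. DESeq2 1.42.0 and limma voom 3.58.1 were alternatives. Values after ± are the size of the log2 fold change divided by the square root of the quasi-likelihood F statistic. They stand in for a standard error and are less exact for genes with few counts. CPM uses TMM-scaled totals, in which 3 counts equal 0.171 to 0.226 CPM. Libraries of a treatment differed by 17.7 to 95.5 times sampling noise, so none was taken as a duplicate. Symbols are those of the count table, apart from 297 clone names exchanged by gene identifier (26121 identifiers matched). The method was tested on simulated counts with known changes in the 1m libraries and no treatment effect. That simulation does not cover treatment effects or odd single libraries.

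The gene lists and the genes named were chosen with earlier results of these data known. The rule named the 10 called genes with the largest differences in each direction (ordinary symbol, averaging 1 CPM or more, no overlap within treatments); up to 4 called members of each main list and 2 of each other list; a fixed set; and further members chosen after their values were seen (such as sp5l, unc45b, neflb, gad2, and1, cyp1a and vmhc).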

Additional observations from a re-analysis of the deposited data

Results flagged for a closer look

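Among 126 named genes, 1 suffix 2 library stood away from the other 4 by more than 0.71 of the range of the 5 for 18 genes. A chance rate of about 1 in 20 would hold for 5 libraries of 1 kind. These differ in treatment, and many of the genes were chosen by their values, so that rate does not apply to the 18. Since the suffix 2 libraries span 3 treatments, a gap of salt 2m may be that of salt and cannot be told apart from it. Salt 2m was the highest library for 11 genes. The gaps were 0.723 for cyp1a, 0.898 for fabp2, 0.928 for gad1b, 0.959 for he2, 0.943 for krt17, 0.71 for krt92, 0.9 for nr4a3, 0.884 for pcdh8, 0.826 for pecam1, 0.847 for pvalb3 and 0.843 for tefb. Salt 2m was the lowest library for vsg1 (gap 0.905), with 6.72 CPM. Glucose 2m was the highest library for 5 lens genes, with gaps of 0.828 for bfsp2, 0.799 for cryaa, 0.895 for cryba1l1, 0.831 for crybb1l2 and 0.881 for mipb. Control 2f was the lowest library for nppa (gap 0.903).

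The interaction of treatment and suffix set passed for 8 of the named genes by edgeR's quasi-likelihood test. Each treatment held 1 library of 1m, and salt held 1 of suffix 2. A dependence on treatment therefore cannot be told apart from 1 odd library. Of these genes cyp1a, casq1a, myh6, vmhc and krt17 were named after their values were seen. The adjusted p was 0.000469 for cyp1a, 0.00727 for casq1a, myh6 and vmhc, 0.0213 for he2, 0.0227 for krt17, 0.0423 for pecam1 and 0.0431 for fabp2. The calcium-storage gene casq1a had log2 fold changes (1m over suffix 2) of -2.87 within control, -1.29 within glucose and 1.32 within salt, and the atrial myosin gene myh6 had -3.12, -0.05 and 1.57. The fatty acid-binding gene fabp2 had 1.92, 1.53 and -0.12, and the endothelial adhesion gene pecam1 had -2.57, -0.31 and -1.39.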

How the results depend on the processing

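Of 126 named genes, 105 were called, and 62 of these stayed called whichever library was left out; none of the 105 changed sign under a scaling, filter, tool or leave-one-out alternative. The gene counts moved more. Leaving out each library gave 561 to 1458 calls (152 to 651 higher, 409 to 945 lower in 1m), against 1693 (604 and 1089). Without a count filter 1014 genes were higher. DESeq2 called 2670, 1102 of them higher. The fit without a treatment term called 24 (13 higher, 11 lower), that without both salt libraries 1043 (351 and 692), that without the 2f libraries 915 (246 and 669) and that without control 1m and salt 2m 154 (70 and 84). With 3 suffix levels, 390 genes were higher in 1m against 2m, and 1m against 2f gave 121 (37 and 84). Within control 3527 genes were called (1827 and 1700) and within glucose 108 (54 and 54), from 1 library of 1m each, assumed to vary like the other libraries. 2f against 2m gave 42 genes without a count filter and 34 with DESeq2, against 1. The interaction passed for 746 genes with DESeq2, against 353. In these cases the cause was not tested. Within salt the signs of he2 (-0.28), fabp2 (-0.12) and krt17 (-0.19) turned and, not called in the full comparison, casq1a (1.32) and myh6 (1.57) passed with the opposite sign; so did cyp1a without control 1m (-0.79, within a leave-one-out range up to 2.25) and vmhc without control 1m and salt 2m (0.98). No paired analysis was possible because the table's columns carry no replicate numbers; the 1m and 2m libraries share treatments, which are a term of the fit, and the fit without the 2f libraries sets them side by side within treatments. At this depth, genes under about 0.2 CPM rest on 3 counts or fewer.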

Other observations

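Other gene families, counted by the table's domain column after their values were seen and with no test, differed between the sets as well. Of 28 tested genes with a papain-type cysteine protease domain, the family of lysosomal cathepsins, 10 were higher and 1 was lower in 1m, with a median log2 fold change of 0.34. Of 60 genes with collagen repeats 16 were lower and 1 higher (median -0.58), and of 57 intermediate filament genes 20 were lower and 4 higher (median -0.47). Over all tested genes 2.94% were higher and 5.3% lower. The genes higher in 1m had a median length of 1835 bases and the lower ones one of 2825 bases, against 2335 over all tested genes.

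In digestive organs, the enterocyte gene fabp2 had 357, 268 and 399 CPM in control, glucose and salt 1m, against 75.8 CPM in control 2f and 112 CPM in control 2m, 85.3 and 101 CPM in glucose 2f and 2m and 433 CPM in salt 2m. Of 20 tested intestine genes it was the 1 that was higher (1.27 ± 0.29, adjusted p = 0.0271). The fabp2 call was lost in 6 of the 8 fits that left out 1 library (adjusted p = 0.134 without control 1m). The 1 lower gene was ada, which encodes adenosine deaminase (-2.94 ± 0.33, adjusted p = 0.00193). Each is 5% of the tested intestine genes, against 2.94% higher and 5.3% lower over all tested genes. Of 7 tested exocrine pancreas genes 2 were lower (28.6%, against 5.3% over all tested genes). They were the factor gene ptf1a (-1.49 ± 0.31) and the carboxypeptidase gene cpa5 (-2.43 ± 0.49). In that list 4 values were above 0, and the median was 0.13 (-0.40 to 0.53 whichever library was left out). The ptf1a call was lost in 3 of the 8 fits that left out 1 library and the cpa5 call in 1. A further 19 members of the list were below the count filter. Of 30 tested liver genes 2 were lower (6.67%, against 5.3% over all tested genes), the ceruloplasmin gene cp (-1.13 ± 0.23) and the complement gene c3a.1 (-0.75 ± 0.19). The c3a.1 call was lost in 6 of those 8 fits (-0.51, adjusted p = 0.168 without control 1m).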
